A study of Mus musculus with 16 samples.

Results

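The miRNA repertoire of resting dendritic cells was described from the 4 untreated libraries of a 16-library small RNA sequencing series. These 4 were all the libraries labelled as control, with no stimulation, and no treated group was compared with them. Treated libraries entered a check of the mouse numbers and the handling of rows with identical or exchanged counts. The cells were grown from bone marrow of the tibiae and femurs of male wild-type C57BL/6 mice, after lysis of red cells with ACK buffer. The label gives mice 8 weeks old for controls 1 to 3 and 7 weeks old for control 4, so age and that 1 library cannot be told apart. The other groups of the series received lipopolysaccharide, quercetin or both. Each value is a count of reads assigned to a mature miRNA, from libraries made with a TruSeq small RNA kit. Across the 4 libraries 1355 names were followed, after names with identical counts had been counted once. Levels are counts per 1000000 counts of the library (CPM) or percent shares of that total, given as mean ± SD over n = 4. They measure sequenced reads, not molecules, and are not divided by length because mature miRNAs are nearly equally long. In such bulk samples, fewer cells of a type and less RNA per cell cannot be told apart.

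A miRNA is cut from a hairpin whose stem holds a sequence on each side, named the 5p and the 3p arm. An Argonaute protein keeps one of them and pairs it with messenger RNAs, chiefly through the seed, bases 2 to 8 from the 5′ end, so miRNAs with the same seed share most of their targets. Dendritic cells are the myeloid cells that present antigen to T cells. In them miR-155 and the miR-146 family are known for promoting and restraining inflammatory signalling.

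Sequences were taken from RefSeq (GRCm38.p6) by name. Of the 1355 names, 1151 had a sequence there, and these held 94.4% of the counts. The names below lead the 12 largest seed families of names with a sequence. With them stand relatives and opposite arms that the results turn on. Capitals mark the seed.
miR-22-3p: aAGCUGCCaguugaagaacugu
miR-21a-5p: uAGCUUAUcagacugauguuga
miR-181a-5p: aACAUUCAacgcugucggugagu
miR-181b-5p: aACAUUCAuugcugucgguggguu
let-7f-5p: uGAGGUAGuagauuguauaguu
let-7a-5p: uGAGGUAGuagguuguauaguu
let-7i-5p: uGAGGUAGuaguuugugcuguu
miR-27b-3p: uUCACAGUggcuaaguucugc
miR-27a-3p: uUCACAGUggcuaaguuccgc
miR-146b-5p: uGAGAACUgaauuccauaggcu
miR-146a-5p: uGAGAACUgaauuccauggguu
miR-191-5p: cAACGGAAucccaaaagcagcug
miR-155-5p: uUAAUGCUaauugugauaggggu
miR-92a-3p: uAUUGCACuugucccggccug
miR-26a-5p: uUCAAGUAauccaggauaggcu
miR-142a-5p: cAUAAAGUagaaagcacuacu
miR-142a-3p: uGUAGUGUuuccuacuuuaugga
miR-10a-5p: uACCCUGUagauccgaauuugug
miR-423-5p: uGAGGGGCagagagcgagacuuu
miR-423-3p: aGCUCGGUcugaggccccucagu

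The 4 libraries held 12489466, 10863460, 8639039 and 10332551 counts, in the order of controls 1 to 4. Per library 906 to 980 names had a count, and 3 counts corresponded to 0.240 to 0.347 CPM. Pairs of libraries correlated at r = 0.953 to 0.982 over the log2 CPM of 295 names, as a description across names. The labels number the mice, and the deviations of controls 1 and 2 from their group mean correlated with those of the treated libraries of the same number at a mean r of 0.15 (-0.17 to 0.41 over 3 libraries) and 0.27 (-0.03 to 0.77), with control 1 at a mean of 0.097 for mouse 3. For the other pair the labels and the data differed. Control 3 had a mean r of -0.37 with the treated libraries of its own number and 0.66 with those of mouse 4, and control 4 had -0.35 with its own and 0.42 with those of mouse 3. Only the ages given for controls 3 and 4 rest on those labels here.

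Few miRNAs made up most of the repertoire. miR-22-3p and miR-21a-5p led it, and 5 miRNAs were enough for 50% of the mean counts. Reaching 90% took 32 names and reaching 99% took 119. The 10 most abundant names of a library held 69.6% ± 0.944 of its counts, within 68.6 to 70.8%. Of the 1355 names, 737 had a count in every library, 177 in exactly 1 and 170 in none. A mean of at least 10 CPM was reached by 295 names, 100 CPM by 145, 1000 CPM by 63 and 10000 CPM by 18.

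miR-22-3p, known for its part in myeloid differentiation, held 18.1, 14.9, 12.4 and 14.01% of the counts of controls 1 to 4. miR-21a-5p, which is abundant in many cell types and known for repressing Pdcd4, held 15.3, 9.17, 14.03 and 15.4%. miR-22-3p was the most abundant miRNA of controls 1 and 2 and miR-21a-5p of controls 3 and 4, so their order was not settled by these libraries. miR-181a-5p, known for tuning antigen receptor signalling in lymphocytes, held 7.45, 7.83, 10.3 and 11.2%, lower in controls 1 and 2 than in the other pair. The order of miR-21a-5p over miR-181a-5p was kept in 4 of 4 libraries.

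miR-27b-3p, whose hairpin lies beside those of miR-23b and miR-24-1, held 7.44, 7.88, 5.99 and 6.204%. miR-146b-5p, which represses adaptors of Toll-like receptor signalling such as Traf6 and Irak1, held 4.61, 8.79, 8.77 and 3.47%. miR-191-5p, from a hairpin beside that of miR-425, held 5.26, 9.31, 3.19 and 3.80%. The last 2 miRNAs varied most among the 10 leading names: miR-191-5p stood high in control 2 alone, and miR-146b-5p was high in controls 2 and 3 and low in the others. miR-146b-5p ranked above miR-191-5p by its mean but in only 1 of 4 libraries.

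let-7f-5p, a member of the family known for holding cells in a differentiated state, held 2.83, 3.19, 5.97 and 5.32%. miR-155-5p, which represses Socs1 and Ship1 and is needed for dendritic cells to activate T cells, held 2.30, 3.87, 4.54 and 3.35%. let-7f-5p was higher in controls 3 and 4 than in controls 1 and 2, whereas miR-155-5p was lowest in control 1. Here and elsewhere, no label sets controls 1 and 2 apart from controls 3 and 4. That split was read off the values, and its share over all names was not counted. miR-92a-3p, a product of the miR-17-92 cluster, held 2.45, 2.69, 2.42 and 3.23%. The tenth name, miR-142a-5p, comes from a hairpin that is transcribed in blood cells. It held 3.37, 3.10, 1.54 and 1.98%, higher in controls 1 and 2 than in the other pair.

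The next 10 names lay between 2.27% and 0.905%. They were miR-10a-5p from the Hoxb locus, miR-26a-5p, miR-378a-3p, miR-16-5p, miR-30d-5p, let-7i-5p, miR-222-3p, miR-148a-3p, miR-181b-5p and let-7a-5p. miR-10a-5p held 2.27% ± 0.257 and stayed within 2.06 to 2.63%. miR-16-5p, which represses Bcl2 and cyclins, held 2.12 and 2.23% in controls 1 and 2 and 1.19 and 1.15% in controls 3 and 4. Of the 19 neighbouring pairs among these 20 names, 1 kept its order in 4 of 4 libraries, 7 in 3, 10 in 2 and 1 in 1. Neighbours in the ranking were thus mostly not separated by 4 libraries, although 17 of the 20 names were among the 20 most abundant of every library.

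**Figure D1:**
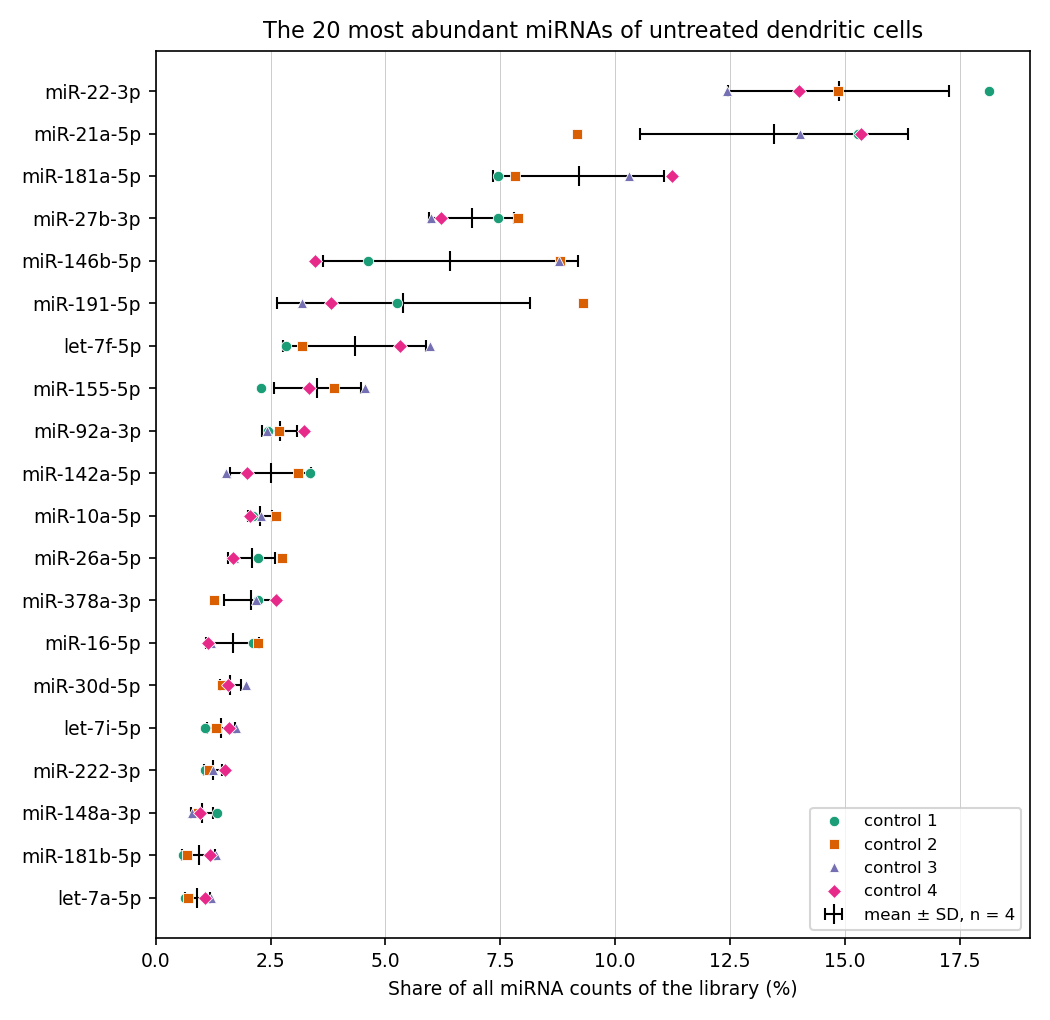
The horizontal axis gives the percent share of a library's miRNA counts, and the vertical axis names the 20 most abundant miRNAs by mean share. Each marker is 1 of the 4 untreated libraries and the black line is the mean with its SD. miR-22-3p and miR-21a-5p overlap, and miR-146b-5p and miR-191-5p spread from 3.47 to 8.79% and from 3.19 to 9.31%.

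The counts were next summed by seed, which can only concentrate them. Among names with a matched sequence, the 12 largest families held 80.0% of all counts. Reaching 50% took 5 families, as it took 5 names, and reaching 75% took 10 families against 13 names. Of 868 families with a detected member, 196 had a summed mean of at least 10 CPM. Only 32 families had 2 or more members of at least 10 CPM each, and these held 48.5% of all counts. The largest families were those of miR-22-3p, at 14.9%, and miR-21a-5p, at 13.5%, each of which rested on a single name. A family sum leaves out names for which no sequence was matched, such as miR-378a-3p at 2.07% and miR-30d-5p at 1.62%. The ranking of families thus holds for matched names only. The 5 listed miR-30 members held 2.47% together, above the miR-10a family at 2.29%, but the miR-30 family as matched held 0.698%.

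The miR-181 family came next with 8.25, 8.65, 11.8 and 12.7% of counts, and miR-181a-5p made up 89.0% of it. miR-181b-5p added 0.938% ± 0.358. The let-7 family followed at 7.96% ± 2.49, with 5.46 and 6.27% in controls 1 and 2 and 10.6 and 9.47% in controls 3 and 4. It was the most evenly shared of the 12: let-7f-5p made up 54.4% of it, let-7i-5p added 1.43% ± 0.301 and let-7a-5p 0.905% ± 0.275. All 9 let-7 guides on the list for the family had a mean of at least 10 CPM. let-7f-5p and let-7a-5p differ by 1 base, so reads with 1 error can pass between them.

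Seed relatives elsewhere contributed little. miR-27b-3p made up 94.0% of its family of 7.32% ± 0.995, and miR-27a-3p, which differs from it by 1 base, the rest. miR-146b-5p made up 97.7% of the miR-146 family, which held 4.72, 9.07, 8.90 and 3.55% of counts. miR-146a-5p, the relative best known from Toll-like receptor responses, stood at 1055, 2851, 1358 and 748 CPM. Both were highest in control 2 and lowest in control 4, and in control 3 miR-146b-5p was nearly as high as in control 2 while miR-146a-5p was not. miR-92a-3p made up 84.9% of a family of 3.18% ± 0.423 that also holds miR-25-3p, miR-26a-5p 79.5% of 2.63% ± 0.445, and miR-10a-5p 99.3% of 2.29% ± 0.257. miR-222-3p and miR-221-3p, which share a seed, a locus and the target Kit, were more even, at 1.24% ± 0.195 and 0.707% ± 0.101.

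**Figure D2:**
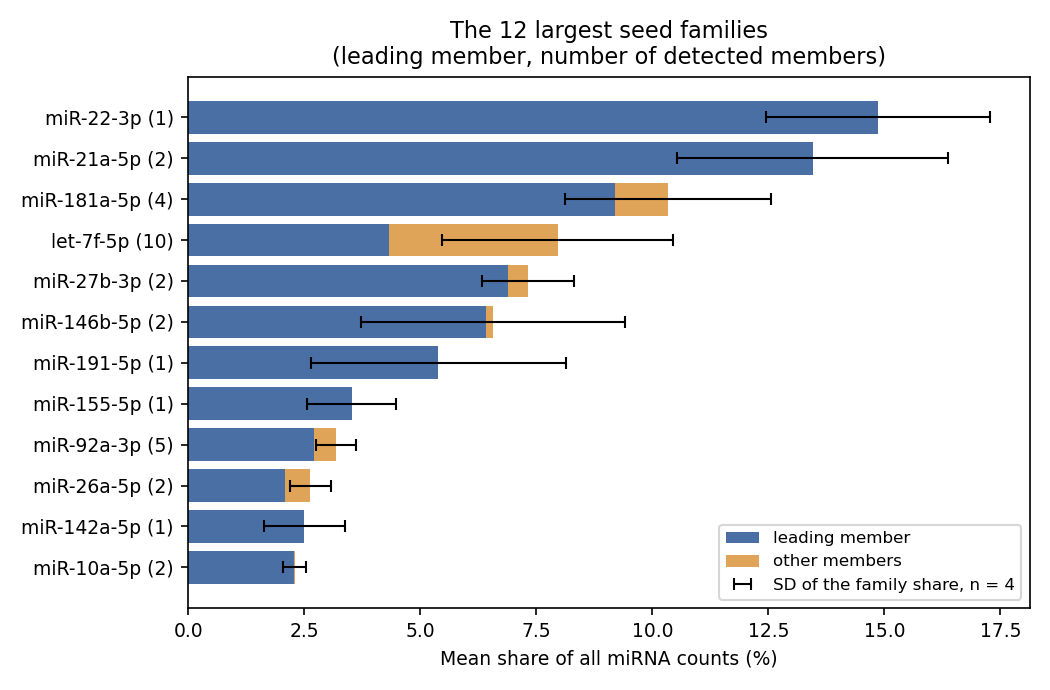
Bars give the mean share of all miRNA counts (horizontal axis, percent) for the 12 largest seed families of names with a matched sequence. Families are named by the leading member, with the number of detected members in brackets. The blue part is the leading member and the orange part the other members. Error bars are the SD of the family share over n = 4 libraries, and only the let-7 family has an orange part near the size of the blue one.

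Reads were also counted by the first base of the mature miRNA. Names that begin with U held 55.3, 55.6, 61.7 and 56.8% of the counts with a known sequence in controls 1 to 4, highest in control 3. They were 43.7% of the 254 sequenced names of at least 10 CPM. Names that begin with A, such as miR-22-3p and miR-181a-5p, held 31.4% of these counts and were 28.3% of the names. Names that begin with C, such as miR-191-5p and miR-142a-5p, held 10.96% and were 21.7%. Names that begin with G held 0.274% and were 6.30%. The shares by count rest on a few abundant names and carry no test.

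Most hairpins had a clear dominant arm. Of 305 hairpins with both arms listed and at least 40 counts in all, 270 (88.5%) differed between arms by edgeR's quasi-likelihood test with the library as a block and Benjamini-Hochberg adjustment at 0.05. The 5p arm was higher in 138 (45.2%) and the 3p arm in 132 (43.3%), so neither side of the stem prevailed among hairpins. By counts the 5p arms held 63.6%. The same arm was higher in 4 of 4 libraries for 267 hairpins. Of 119 hairpins with at least 100 CPM over both arms, 61 were called with 5p higher, 51 with 3p higher and 7 were not called (94.1% called). Their median share of the major arm was 98.6%, and in 57 of them the major arm held at least 99%.

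miR-22 was among the most one-sided hairpins that are abundant. Its 5p arm held 0.0400, 0.0239, 0.0800 and 0.0612% of the hairpin's counts in controls 1 to 4, a mean of 73.4 ± 27.5 CPM against 148635 ± 24057 CPM of miR-22-3p. The log2 ratio of 5p to 3p was -11.06 ± 0.47 (SE) with an adjusted p of 6.71e-94 (edgeR), and 3p was higher in 4 of 4 libraries. The size of that p depends on the method: it was 2.27e-08 by limma on the log2 ratio of arms. Of the other 9 hairpins with the highest combined level, 5p dominated in miR-146b with a log2 ratio of 11.23 ± 0.48, in miR-191 with 10.41 ± 0.47 and in let-7f with 9.68 ± 0.46. It also dominated in miR-155 with 8.05 ± 0.43, in miR-21a with 7.46 ± 0.41 and in miR-181a with 6.83 ± 0.40. The 3p arm dominated in miR-27b at -8.30 ± 0.43 and in miR-92a at -7.38 ± 0.42. All of these passed the test and kept their direction in 4 of 4 libraries. For miR-92a the 3p name comes from hairpins on chromosomes 14 and X, while miR-92a-1-5p alone stood for the 5p arm. That ratio therefore does not compare the arms of a single hairpin.

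miR-142a was the least one-sided of those 10. Its 5p arm held 92.8, 96.6, 93.4 and 92.8% of the hairpin's counts, highest in control 2. The log2 ratio was 4.01 ± 0.36, with an adjusted p of 4.72e-27 by edgeR and 5.05e-06 by limma. miR-142a-3p stood at 2607, 1082, 1089 and 1533 CPM. The 2 arms have different seeds, printed above, and both were present at more than 1000 CPM in every library. A minor arm of at least 100 CPM was found in 26 hairpins. After miR-423-3p (1601 ± 821 CPM) and miR-142a-3p (1578 ± 718 CPM) came let-7d-3p (1116 ± 233 CPM), miR-21a-3p (848 ± 427 CPM) and the 3p arms of miR-181a (822 ± 220 CPM).

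At the extreme, some minor arms were nearly without reads. Over all 4 libraries miR-182-3p had 3 reads, all in control 3, against 118417 of miR-182-5p, a ratio of 39472 with an exact 95% counting interval of 13506 to 191408. miR-149-3p had 1 read against 33492 of the 5p arm, which leaves it at most 0.0166% of the hairpin by the same interval. miR-146a-3p had 5 reads against 63613, so that both miR-146 hairpins kept almost only the 5p arm. miR-192 and miR-26a followed on the 5p side with log2 ratios of 12.21 and 11.49. On the 3p side miR-101b-5p had 5 reads against 52220, miR-103-5p 30 against 208531 and miR-107-5p 19 against 40702. miR-328-5p had 3 against 13658, a ratio of 4553 (1558 to 22079), and miR-143-5p had 1 against 5080, at most 0.110% of its hairpin. For 16 of the 305 hairpins the minor arm had no read at all.

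A few hairpins were close to balance, and in these the higher arm changed between libraries. The 5p arm of miR-423 held 42.2, 56.6, 75.4 and 47.8% of its counts, at mean levels of 1841 CPM for 5p and 1601 CPM for 3p. It was the minor arm in controls 1 and 4 and stood far above the rest in control 3. The log2 ratio was 0.34 ± 0.34 and the adjusted p 0.335 (edgeR), and without control 3 the ratio turned to -0.067. The GC content of miR-423-3p is 65.2%, and names of high GC content were low in control 3, as given below with the spread between libraries. Its part in the arm ratio was not tested.

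The 5p arm of miR-872 held 55.7, 70.2, 39.7 and 40.9% (adjusted p = 0.807, edgeR), and that of miR-361 held 53.1, 60.3, 38.7 and 35.5% (adjusted p = 0.634, edgeR). In both, controls 1 and 2 had more 5p and controls 3 and 4 more 3p. Their ratios also turned without 1 library: miR-872 went from 0.10 to -0.27 without control 2, and miR-361 from -0.19 to 0.043 without control 4. miR-18a, of the miR-17-92 cluster, had 77.8% 5p in control 1 and 48.5 to 53.2% in the others (adjusted p = 0.249, edgeR). miR-125b and miR-28a were not called either, at adjusted p of 0.101 and 0.0517 (edgeR), although 5p was higher in 4 of 4 libraries; the counts of miR-28a-5p are also those of miR-28c. Among 35 hairpins whose higher arm differed between libraries, 6 had at least 100 CPM, namely miR-423, miR-361, miR-106b, miR-872, miR-350 and miR-18a. Of these miR-106b alone passed the test, with 5p at 52.9, 29.9, 37.3 and 28.8% and a log2 ratio of -0.79 ± 0.37 (adjusted p = 0.0388, edgeR). That call did not hold without control 2, 3 or 4 (adjusted p of 0.102, 0.0605 and 0.224, edgeR).

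For miR-24 the values rest on 1 row. The 5p arm held 0.726, 24.2, 0.498 and 0.671% of its counts, since miR-24-2-5p was listed with 7094 counts in control 2 and with 0 in the other 3 controls. Over the whole series that row was 0 in 7 of 16 libraries and 79 to 9991 in the others. The log2 ratio of -6.35 became -7.35 without it and -3.44 in a fit without the library block. The 3p arm was higher in every library.

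Where both arms had a sequence, the first base differed between the higher and the lower arm. Of 195 called hairpins, the higher arm began with U in 111 (56.9%) and the lower arm in 45 (23.1%). For G these shares were 4.10% and 17.9%. Among the 82 with at least 100 CPM, U began 58.5% of higher arms and 13.4% of lower arms. Of the printed pairs, miR-142a has a dominant 5p arm that begins with C and a minor 3p arm that begins with U. The other pair, miR-423, begins with U in 5p and A in 3p, but it was not called and is not among the 195. The higher arm had more A or U in its first 4 bases in 86 hairpins (44.1%), the lower arm had more in 45 and 64 were equal. Hairpins of a family share sequence and are not independent, so no test was made.

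**Figure D3:**
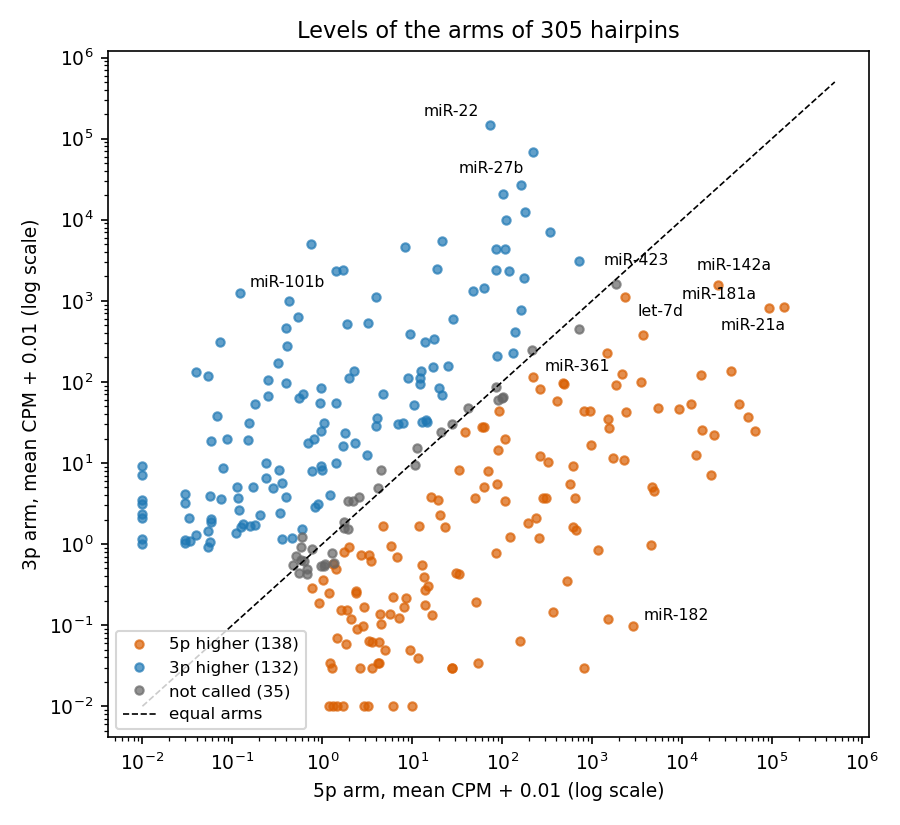
Each point is 1 of 305 hairpins, with the mean CPM of its 5p arm on the horizontal and of its 3p arm on the vertical log axis, both plus 0.01. Colours give the call by edgeR, and the dashed line marks equal arms. The 138 hairpins with 5p higher and the 132 with 3p higher lie on either side of the line, most of them far from it, with miR-22 at 73.4 against 148635 CPM, while miR-423 and miR-361 lie on or near it.

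The spread between the 4 cultures was many times that of counting. With TMM scaling, the median coefficient of variation (CV) of the 295 names of at least 10 CPM was 29%, where counting alone gives a median of 3.17%. It was 30.8% for 10 to 100 CPM, 27.6% up to 1000 CPM, 26.6% up to 10000 CPM and 23.3% above that, so the CV fell only slightly with abundance. Of the 145 names of at least 100 CPM, 141 had a CV over 5 times their counting CV, 89 stayed within a 2-fold range and 14 had a CV over 50%. The common biological coefficient of variation by edgeR was 41.8%.

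The 10 names with the highest CV at 100 CPM or more started with miR-24-2-5p, present in 1 library alone. The others are given by TMM-scaled CPM in controls 1 to 4. miR-143-3p, known from smooth muscle and fibroblasts, stood at 16.4, 75.9, 343 and 114 (CV 104%). miR-183-5p, which shares a cluster with miR-182, stood at 180, 674, 230 and 147 (CV 80.0%), high in control 2 alone. miR-301a-3p, at 1089, 212, 279 and 492, and miR-19b-3p, at 1161, 232, 436 and 664, were both highest in control 1 and lowest in control 2. miR-146a-5p was high in control 2, at 2867 against 687 to 1449.

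Of those names, miR-339-3p, miR-328-3p, miR-210-3p and miR-99b-5p, were lowest in control 3. miR-339-3p stood at 130, 78.4, 16.7 and 221 (CV 77.5%) and miR-328-3p at 278, 521, 92.6 and 343 (CV 57.3%). miR-210-3p, the miRNA induced by hypoxia, stood at 201, 135, 36.4 and 222 (CV 56.2%). The most even names of at least 100 CPM were miR-30e-3p at 365, 399, 374 and 373 (CV 3.90%), miR-92a-3p (CV 7.91%), miR-30d-3p, miR-5099, miR-340-3p and miR-532-5p (CV 11.3%). miR-92a-3p was the only one of them among the 20 most abundant.

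**Figure D4:**
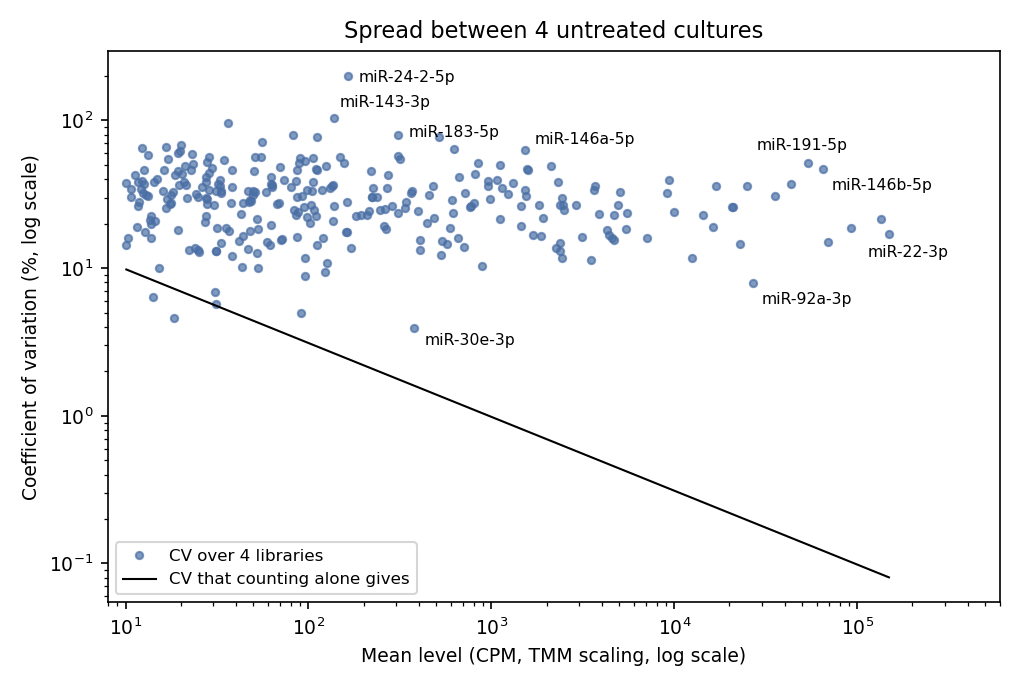
The horizontal log axis gives the mean TMM-scaled CPM and the vertical log axis the CV in percent over 4 libraries, 1 point per name of at least 10 CPM. The black line is the CV from counting alone. Nearly all points lie above the line, around a median of 29%, with miR-24-2-5p and miR-143-3p at the top and miR-30e-3p at 3.90%.

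GC content moved with the deviations of control 3. For 124 names with a sequence and at least 100 CPM, the correlation of GC content with the log2 deviation from the mean of the libraries was 0.01, 0.33, -0.56 and 0.40 in controls 1 to 4. These values are across names, and the 4 deviations of a name sum to 0, so they are linked. Of the 20 names with a GC content of at least 58%, a limit set after the plot was seen, 19 were below the mean in control 3, with a median of -0.87. In controls 1, 2 and 4 the same names had medians of 0.36, 0.33 and 0.30. Among them were miR-339-3p, miR-210-3p, miR-423-3p, miR-21a-3p and miR-484, and the exception was miR-149-5p. Which step gave this relation was not tested.

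**Figure D5:**
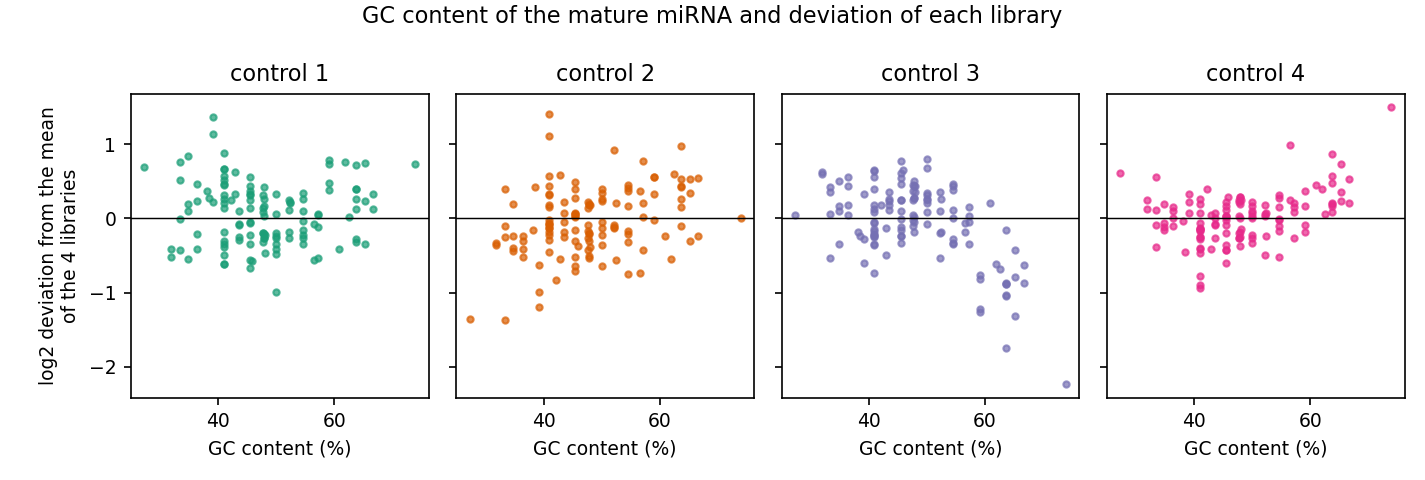
Each panel is 1 untreated library, with the GC content of the mature miRNA in percent on the horizontal axis and the log2 deviation of its TMM-scaled level from the mean of the 4 libraries on the vertical axis. Points are 124 names of at least 100 CPM. In control 3 the names of at least 58% GC lie below 0 except 1, with a median of -0.87.

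Pairs of miRNAs differed in how tightly they moved together, measured as the SD over libraries of the log2 ratio of their counts. For all 4851 pairs of 99 names the median was 0.60. The 99 were names of at least 100 CPM, with a count in every library, that the RefSeq table matched to 1 hairpin. The table is not complete, and let-7a-5p, which is among the 99, comes from more than 1 hairpin. The median was 0.26 for 28 pairs with the same seed from distant hairpins, of which 14 were among let-7 names and miR-98-5p (median 0.18). The other 14 had a median of 0.43 and ran from miR-27b-3p with miR-27a-3p (0.067) to miR-130b-3p with miR-301a-3p (1.02). Near-identical names may share reads. Hairpins within 10 kb gave 0.40 over 17 pairs. These ran from tight pairs such as miR-27a-3p with miR-23a-3p (0.16) and miR-222-3p with miR-221-3p (0.22) to loose ones such as miR-132-3p with miR-212-3p (0.80) and miR-182-5p with miR-183-5p (0.87). The 2 arms of 1 hairpin gave 0.64 over 16 pairs, no tighter than pairs at large. These were only hairpins with both arms at 100 CPM or more. Pairs share names and libraries, so these are descriptions with no test.

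By position, names from a lone hairpin held 51.2% of counts and names from a hairpin with a neighbour within 10 kb held 19.96%. The other 28.8% came from names with several hairpins or without a RefSeq entry. These shares rest on the incomplete RefSeq table, in which let-7a-5p counts as a name of 1 hairpin with a neighbour. The largest groups of neighbours were Mir23b with Mir27b and Mir24-1 at 6.90%, nearly all of it miR-27b-3p and without miR-23b-3p, which was not matched, and Mir191 with Mir425 at 5.59%. The pair Mir221 and Mir222 held 1.99%.

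The level of marker lists is given next to the label of the cells. The lists hold some of the most abundant names here and were chosen with results of these data known, so their counts are no independent check of the label. Of all 1355 names, 21.8% had at least 10 CPM and the median was 0.352 CPM. All 7 miRNAs of the leukocyte list had at least 10 CPM (median 2360 CPM), and together they held 20.02% ± 2.28 of counts. Most of this sum was miR-21a-5p at 13.5%, which is abundant in many cell types and not particular to leukocytes. miR-155-5p followed at 3.52%. miR-223-3p, known from neutrophils and monocytes, stood at 3094, 2592, 1844 and 1909 CPM. All 14 miRNAs of monocytes, macrophages and dendritic cells had at least 10 CPM (median 756 CPM), at 23.8% ± 2.53, mostly miR-22-3p. miR-147-3p, which is induced by Toll-like receptors, stood at 3298, 2498, 1668 and 2425 CPM. miR-511-3p, encoded in the mannose receptor gene Mrc1, was low at 44.9, 16.7, 31.7 and 34.6 CPM. No miRNA on these lists is a marker of dendritic cells alone.

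Lists of other cells are given with the level of each defining member. Of 9 progenitor miRNAs 6 had at least 10 CPM, and miR-10a-5p made up nearly all of the summed 2.31% ± 0.263, while miR-126a-3p stood at 8.23 ± 1.03 CPM. Of 5 erythroid miRNAs measured, miR-486a-5p, counted together with miR-486b-5p, stood at 613 ± 194 CPM but miR-451a, the defining one, at 18.1 ± 6.01 CPM and miR-144-3p at 1.53 ± 0.982 CPM, for a sum of 0.0635% ± 0.0194. Of 4 lymphocyte miRNAs, miR-150-5p stood at 402, 480, 943 and 819 CPM, higher in controls 3 and 4, and miR-31-5p at 13.98 ± 3.75 CPM. The sum of these 4 ran from 0.0417 to 0.0954%.

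Of 9 mesenchymal miRNAs, 2 had at least 10 CPM. miR-143-3p stood at 16.2, 75.5, 322 and 123 CPM and miR-199a-3p, counted with miR-199b-3p, at 7.53, 17.2, 81.0 and 37.3 CPM, both lowest in control 1 and highest in control 3. The sum of the 9 ran from 0.00257% in control 1 to 0.0419% in control 3, and miR-145a-5p and miR-214-3p stayed near 1 CPM at 1.05 and 1.15. Of 7 epithelial miRNAs, 6 had at least 10 CPM but none reached 100 CPM: miR-200b-3p 70.8, miR-141-3p 55.5, miR-203-3p 52.7, miR-429-3p 33.3, miR-200c-3p 19.2 and miR-200a-3p 12.6 CPM. Of 9 miRNAs of muscle, liver, neurons and endocrine cells, miR-9-5p alone passed 10 CPM. It is known from neurons and also from activated monocytes, and stood at 1769, 1263, 1679 and 2069 CPM. miR-122-5p of liver stood at 6.07 CPM, miR-133a-3p of muscle at 1.28 CPM and miR-124-3p of neurons at 0.295 CPM, the last of them near the level of 3 counts. The part of such cells in the spread of other miRNAs was not tested.

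Families and loci listed by function differed widely in level. All 4 miR-181 members, all 5 of the miR-23, miR-27 and miR-24 clusters (7.99% ± 1.03), all 5 miR-30 members (2.47% ± 0.335) and all 6 of the miR-15 and miR-16 group (1.83% ± 0.599) had at least 10 CPM. So did all 3 miR-29 members (0.598% ± 0.129), led by miR-29a-3p, and all 3 of miR-148 and miR-152 (1.25% ± 0.307). Of 12 members of the miR-17-92 cluster and its paralogues 10 did, for 3.56% ± 0.435. miR-92a-3p made up most of that sum, while miR-17-5p stood at 483 ± 99.9 CPM and miR-20a-5p at 285 ± 71.7 CPM.

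The imprinted Dlk1-Dio3 locus encodes a large miRNA cluster of embryonic and stem cells. A list of 24 of its miRNAs was used, which is not the whole locus. None of the 20 measured members of that list reached a mean of 10 CPM. miR-376b-3p, miR-379-5p and miR-487b-3p had no count in any of the 4 libraries. miR-127-3p stood at 15.2 and 10.3 CPM in controls 1 and 2, 0 in control 3 and 0.581 CPM in control 4. Of 6 miRNAs whose processing bypasses Drosha or Dicer, 5 had at least 10 CPM. miR-484 stood at 1289, 1427, 455 and 1146 CPM, lowest in control 3, and miR-320-3p at 320, 344, 506 and 668 CPM.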

How the data were processed

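The deposited values are raw read counts for mature miRNAs, which the authors made with cutadapt and the mouse build mm9, per the submitters' processing notes; the aligner, its version and the counting rule are not given in the sources used here. Of 1381 rows, 1 with text was left out, 4 names on 2 rows each were summed, and 4 neighbouring rows whose counts look exchanged in treated libraries were left out. This gave 1372 names. Among them 15 sets of 32 names with identical counts were counted once, leaving 1355. The 4 rows left out as exchanged were miR-6993-3p, miR-1839-5p, miR-700-3p and miR-654-3p. Of these, miR-1839-5p had 5962, 4800, 8220 and 9706 counts in controls 1 to 4, a mean of 700 CPM. It is therefore missing from the ranking and the spread given here. Totals ran from 8639039 to 12489466 counts.

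CPM and shares used library totals, and spread used TMM scaling (edgeR 4.0.16, R 4.3.3). Arms of hairpins with at least 40 counts were compared by glmQLFTest with library as a block, adjusted by Benjamini-Hochberg at 0.05, and the script was tested on simulated data. Each SE is the log2 ratio divided by the square root of F. Counting intervals are exact (Clopper-Pearson, 95%) and cover counting error only. Alternatives were DESeq2 1.42.0, limma 3.58.1, other filters, and leaving out each library. Replicates are mice, per the labels' design.

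Named were the 20 most abundant miRNAs, leaders of the 12 largest families, the 10 most abundant hairpins, the 5 most one-sided each way and 6 nearest to balance at 100 CPM or more, the 10 highest and 6 lowest CVs, and up to 4 members per list. miR-24, miR-106b and miR-350 were named after their values were seen, as were members shown for contrast. Members and lists were chosen with earlier results of these data known.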

Additional observations from a re-analysis of the deposited data

Results flagged for a closer look

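In 12 of 146 values with 4 libraries (8.22%), 1 library lay far from the other 3 by Dixon's gap test at the 95% level. Chance alone meets that level in about 1 of 20 independent values. Some of the 146 were chosen for a high or low CV in these libraries and some share reads, so the 2 rates cannot be compared. The 5p part of miR-142a was 96.6% in control 2 and 92.8 to 93.4% in the others. That of miR-24 was 24.2% in control 2 against 0.498 to 0.726%, and miR-24-2-5p stood at 657 TMM-scaled CPM in control 2 and at 0 in the others. The 5p part of miR-18a was 77.8% in control 1 and 48.5 to 53.2% in the others. In 3 hairpins the gap was made by 1 to 3 reads of the minor arm: miR-182 at 99.99% 5p in control 3, miR-149 at 99.99% 5p in control 1 and miR-143 at 0.0359% 5p in control 3, where the other libraries had none. Among single miRNAs, miR-183-5p stood at 674 TMM-scaled CPM in control 2 (147 to 230 in the others). miR-181d-5p stood at 433 CPM in control 1 (549 to 569), and miR-23b-3p at 2627 CPM in control 3 (2245 to 2308). The summed epithelial list held 0.0316% of counts in control 1 (0.0217 to 0.0228%), and the miR-17-92 list 4.21% in control 4 (3.26 to 3.41%).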

How the results depend on the processing

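Of 95 checks of summary values under other settings, 92 stayed close to the reported value. Close means within 1 SD or, where it has no SD, within 1.5 times of it. For the shares of miR-22-3p, the 10 most abundant names and the let-7 family, leaving out 1 library moves the mean by less than 1 SD in any data. Those checks could not fail and carry no weight. Others were nearly fixed as well. TMM scaling acts alike on both arms of a library, and leaving out rare names or the row of miR-24-2-5p barely touches the leading shares. The checks of the largest family mostly repeat those of miR-22-3p. The count of 92 is therefore no measure of how robust the results are. The number of names with a count in every library went from 737 to 513 at a mean of at least 10 counts. The median CV rose to 56.2% when every name with 1 count or more was used. With at least 400 counts per hairpin, 90 hairpins were called with 5p higher and 85 with 3p higher, out of fewer tested (187). Without the replicate block for the library, edgeR called 136 and 131, and no hairpin called in the main test was called with the other arm under any setting. Leaving out 1 library gave 127 to 133 and 116 to 126 calls, a median CV of 24.3 to 31.2%, a let-7 family share of 7.07 to 8.79% and a miR-22-3p share of 13.8 to 15.7%. The log2 arm ratio reversed when 1 library was left out, over a range of -0.27 to 0.34 for miR-872 (lowest without control 2), -0.45 to 0.043 for miR-361 (highest without control 4) and -0.067 to 0.61 for miR-423 (lowest without control 3). None of these 3 was called. The call of miR-106b (log2 -0.79, adjusted p = 0.0388 by edgeR) was lost with limma (0.0872), without the block (0.0582), with no minimum (0.0683), against a 2-fold limit (0.487) and without controls 2, 3 or 4 (0.102, 0.0605 and 0.224). miR-28a was called with DESeq2 (0.0234), without the block (0.0398), at 400 counts (0.0439) and without the row of miR-24-2-5p (0.0400), an alternative chosen after seeing the data. The cause of these changes was not tested. Depth limits minor arms: 3 counts are 0.240 to 0.347 CPM, and 35 of 305 hairpins were not called.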
